A study of Mus musculus with 23 samples.

Results

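Hypothalamic RNA of vehicle-injected db/db mice was compared between 1 day and 6 h, using 8 of the 23 arrays of the series. The members are the 4 arrays labelled as DMSO at 1 day and the 4 labelled as DMSO at 6 h, chosen by treatment and time alone. All animals were 8-week-old males homozygous for the db mutation of the leptin receptor, which leaves them without effective leptin signalling, obese and diabetic. They had eaten normal chow for 2 weeks and received DMSO (25 µl per day) intraperitoneally. The series also holds 4 vehicle arrays at 4 days and arrays of db/db mice of the same age, sex and diet given celastrol, a plant triterpenoid, in DMSO (3 at 6 h, 4 at 1 day and 4 at 4 days). Celastrol was dosed at 250 µg/kg for the 6-h group, and the labels state no dose for the later groups. The vehicle groups serve as the controls of the celastrol groups at the same times, and setting them against each other asks which transcripts differed between the times without the drug. Strain background, clock times of injection and dissection, and the number of injections before 1 day are not stated in the labels. Time since injection, time of day and handling therefore cannot be told apart.

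Several gene systems can move within a day in this tissue. In the circadian clock, CLOCK and BMAL1 bind E-box sequences and drive the Per and Cry genes, whose proteins then repress them, while the REV-ERB and ROR receptors adjust Bmal1 transcription. Immediate early genes such as Fos, Arc and Npas4 are switched on for a short time by neuronal activity through CREB, SRF and related factors. Corticosterone, released through the hypothalamic peptide CRH and pituitary ACTH, binds the glucocorticoid receptor, which moves to the nucleus and activates genes such as Fkbp5, Sgk1 and Tsc22d3.

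Promoter sequences of 3 genes are shown as examples of elements tied to these systems, although the E-box also occurs in genes of the other lists. They come from RefSeq (GRCm38.p6) and cover the 250 bases before a gene start, written 5′ to 3′ on the gene's strand. Capitals mark CACGTG, the core E-box, in Per1 (chr11:69098699-69098948, plus strand) and Ciart (chr3:95882229-95882478, minus strand), and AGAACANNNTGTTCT, the palindromic glucocorticoid response element, in Sgk1 (chr10:21993640-21993889, plus strand).
Per1: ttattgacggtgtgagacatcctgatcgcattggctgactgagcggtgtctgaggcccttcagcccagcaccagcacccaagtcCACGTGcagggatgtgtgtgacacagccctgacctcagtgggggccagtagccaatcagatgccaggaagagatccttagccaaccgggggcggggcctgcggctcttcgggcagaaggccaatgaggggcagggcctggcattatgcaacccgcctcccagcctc
Ciart: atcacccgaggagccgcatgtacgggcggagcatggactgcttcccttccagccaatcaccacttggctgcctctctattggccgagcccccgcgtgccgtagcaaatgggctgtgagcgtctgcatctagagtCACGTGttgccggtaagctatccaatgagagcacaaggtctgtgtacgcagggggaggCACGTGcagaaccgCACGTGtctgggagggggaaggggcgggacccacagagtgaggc
Sgk1: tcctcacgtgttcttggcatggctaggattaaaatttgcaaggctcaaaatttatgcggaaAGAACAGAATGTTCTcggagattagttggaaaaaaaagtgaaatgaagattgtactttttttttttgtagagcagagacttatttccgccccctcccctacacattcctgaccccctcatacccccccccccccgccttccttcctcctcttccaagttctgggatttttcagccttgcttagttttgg
The Per1 window shown, 1 of the gene's 2, holds 1 E-box, 166 bases before the start. The Ciart window holds 3 between 116 and 44 bases before it. The Sgk1 stretch also holds CACGTG, and the Per1 stretch also holds TGACG, the half-site described below, both left in small letters. The Sgk1 match lies 189 bases before the start, in 1 of the gene's 6 annotated windows. Both strands were searched in windows from 250 bases before to 50 after a start, and a match is a description of letters, not a bound site. The E-box letters occurred in 5 of 21 clock genes with a window (Per1, Cry1, Tef, Bhlhe41 and Ciart), against 8.09% of 27025 genes. Of the other lists, 9 of 37 activity-induced and 6 of 31 glucocorticoid response genes with a window also held these letters. TGACG, the half-site bound by CREB, occurred in 26 of 37 activity-induced genes with a window, in 9 of the 21 clock genes and in 10 of the 31 glucocorticoid response genes, against 6228 of the 27025. The palindromic element occurred in 3 genes of the genome table, 0.0111%, and Sgk1 was the 1 match among 31 glucocorticoid response genes with a window.

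No gene differed between the times past the threshold. Levels are log2 expression values of 1 probe set per gene, each printed in the order of replicates 1 to 4, and a difference is the mean of 1 day minus the mean of 6 h on that scale. Of 18702 genes tested with limma over all 23 arrays, 0 had a Benjamini-Hochberg adjusted p under 0.05 (0%), and the smallest adjusted p was 0.101. At an unadjusted p under 0.05 there were 1999 genes (10.7%), of which 751 were higher at 1 day (4.02%) and 1248 lower (6.67%). That split moved with the scaling, to 1135 higher and 960 lower with arrays centred on their medians and to 901 and 875 after a further quantile normalisation. All 4 arrays of 1 day lay above all 4 of 6 h for 410 genes (2.19%) and below them for 675 (3.61%). For the median gene the 95% confidence interval reached 0.136 on the log2 scale to either side of the difference. In simulated data with independent noise, 61.2% of differences of 0.25, 94% of 0.5 and 98.5% of 1 were recovered in this comparison. That simulation changed 67, 67 and 66 genes by these sizes and left out the shared differences between arrays described below. Its rates therefore need not hold for these arrays, where Lcn2 (-0.79) and Ifit3b (0.60) did not pass. Samples within a group are labelled as biological replicates. Each limma p-value and SE uses a gene's spread within groups pooled over all 23 arrays, the celastrol and 4-day arrays included. The exact permutation tests below use only the vehicle arrays at 6 h and 1 day.

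The arrays of a group were not alike in every respect. The tissue markers of hypothalamus were present, with all 16 above the median level of all genes and a list mean between 10.69 and 10.90 on the 8 arrays. Anterior pituitary hormones stood out on some arrays. Prl, prolactin, read 6.21, 11.29, 6.72 and 10.93 at 6 h and 9.24, 6.09, 5.95 and 6.13 at 1 day, and Gh, growth hormone, read 7.39, 12.70, 8.01 and 11.91 at 6 h and 11.56, 8.06, 7.63 and 7.72 at 1 day. Replicates 2 and 4 of 6 h and replicate 1 of 1 day thus held the high values of both genes. Of 10 measured pituitary markers, 10 were lower at 1 day (median -0.24), and their mean level ranged from 7.18 to 8.89 at 6 h and from 7.15 to 8.23 at 1 day (exact permutation test of the difference, 2-sided p = 0.314, where 4 against 4 allows no p below 0.0286). Without the vehicle arrays with Prl above 9, 6 of the 10 were lower (median -0.0173). Only 2 of these 10 markers were above the median level of all genes. The choroid plexus marker mean differed by -0.06 (exact p = 0.314), with 12 of 14 markers lower and Ttr, transthyretin, higher by 0.47 (adjusted p = 0.45), or by 0.24 without replicate 1 of 1 day. No choroid plexus marker was above the median level of all genes. After a further quantile normalisation 9 of the 14 were lower. Replicate 3 of 6 h stood apart in other genes, described with the oxidative phosphorylation list. In bulk tissue, fewer cells of a type and less RNA per cell cannot be told apart.

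**Figure D1:**
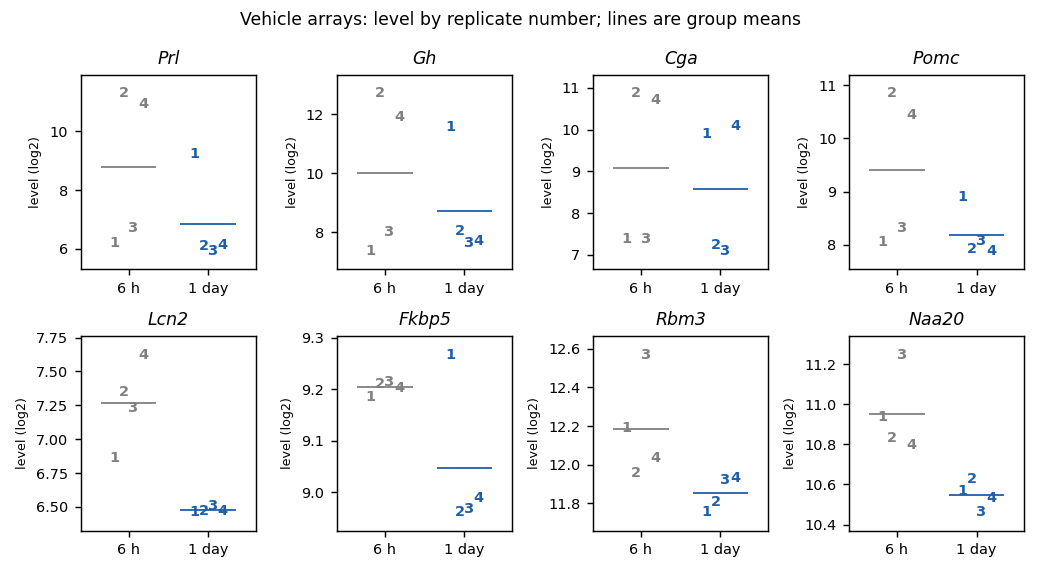
Level (log2) of 8 genes on the vehicle arrays at 6 h (grey) and 1 day (blue); each digit is an array's replicate number and each line a group mean, and every panel has its own axis, which does not start at 0. Prl, Gh and Pomc are high on replicates 2 and 4 of 6 h and higher on replicate 1 than on the other arrays of 1 day, Cga is also high on replicate 4 of 1 day, Lcn2, Rbm3 and Naa20 do not overlap between the times, and Fkbp5 separates all arrays but replicate 1 of 1 day.

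Clock genes differed little. Of 24 measured clock genes 18 were higher (45.9% of all genes) and 6 lower at 1 day, with a median difference of 0.0397 beside -0.00904 over all genes, and 0 passed. Without replicate 3 of 6 h the list split into 14 higher and 10 lower, with a median of 0.00583. Their differences ran from -0.14 (Timeless) to 0.13 (Per3), and all 24 confidence intervals lay between -0.278 and 0.294. Among the repressors, Per1 read 10.38, 10.23, 9.96 and 10.28 at 6 h and 10.44, 10.13, 10.24 and 10.28 at 1 day, and Per2 read 9.60, 9.64, 9.40 and 9.47 at 6 h and 9.60, 9.57, 9.59 and 9.56 at 1 day. Both genes overlapped between the times, with replicate 3 of 6 h the lowest array for each. Per3 read 9.72, 9.73, 9.53 and 9.71 at 6 h and 9.84, 9.83, 9.76 and 9.78 at 1 day, a difference of 0.13 ± 0.0469 SE (adjusted p = 0.353). It was the 1 clock gene whose groups did not overlap, 1 of 24 beside 2.19% of all genes, and without replicate 3 of 6 h its difference was 0.09. Cry1, the partner of the PER proteins, differed by -0.01 and Cry2 by 0.04.

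The activators and the output genes also differed by small amounts. Arntl, which encodes BMAL1, read 8.99, 8.98, 9.06 and 9.08 at 6 h and 8.92, 9.01, 8.91 and 8.97 at 1 day, so that the groups overlapped, and differed by -0.08 ± 0.043 SE (adjusted p = 0.521). Its partner Clock differed by 0.02. Nr1d1, which encodes the repressor REV-ERB alpha, read 11.77, 11.81, 11.49 and 11.88 at 6 h and 11.84, 11.83, 11.74 and 11.84 at 1 day, and its paralog Nr1d2 differed by 0.0016. For Nr1d1 the values at 1 day lay inside the range of 6 h. Dbp, a D-box activator with a strong daily rhythm in many tissues, read 10.58, 10.51, 10.71 and 10.52 at 6 h and 10.59, 10.70, 10.63 and 10.68 at 1 day, a difference of 0.07 with overlapping groups. Its relatives Tef and Hlf differed by 0.03 and 0.07, and Nfil3, which represses the same elements, by 0.04. Ciart, a repressor whose window holds the 3 E-boxes shown above, read 10.46, 10.51, 10.59 and 10.24 at 6 h and 10.56, 10.35, 10.36 and 10.38 at 1 day, with a wide spread at 6 h and a difference of -0.04. Bhlhe40 and Usp2, both under E-box control, differed by 0.12 each (adjusted p = 0.582 and 0.476).

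**Figure D2:**
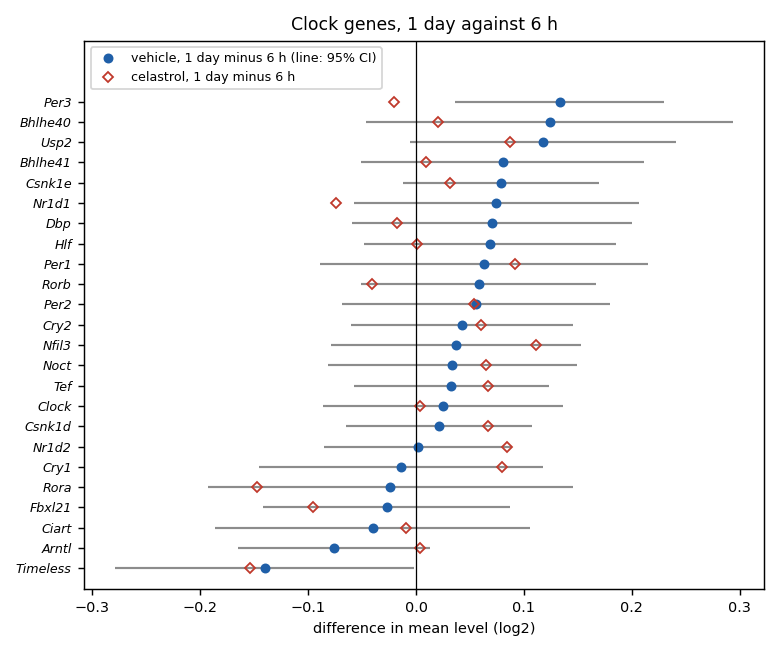
Differences in mean level (log2) of 24 clock genes between 1 day and 6 h, with the vehicle difference as a blue dot, its 95% confidence interval as a grey line and the celastrol difference as an open red diamond. The vehicle differences run from -0.14 to 0.13, and 18 of 24 lie above 0.

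In the celastrol-treated mice, whose arrays are separate from these, the same interval gave 16 clock genes higher (50.9% of all genes) and 8 lower (49.1%) with a median of 0.0145. Clock genes of the 2 treatments had opposite signs in 6 of 24 cases, beside 36.5% of all genes. Per3 differed by -0.02 there, Nr1d1 by -0.07 and Dbp by -0.02. None of these passed, and 0 of 18702 genes passed the test of the vehicle difference against the celastrol difference (limma, 685 at an unadjusted p under 0.05, 3.66%).

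The suprachiasmatic nucleus, the master clock of the hypothalamus, was followed through 15 peptide and regulator genes, of which 9 were higher and 6 lower at 1 day (median 0.0247, 0 passed). That median lay near 0 when any 1 array of 6 h was left out, at 0.000968, 0.0039, 0.00438 and -0.00115 without replicates 1 to 4. With the SD over genes of an array as a covariate 9 of 15 were lower (median -0.0441), so the list had no settled direction. Lhx1, a homeobox gene needed for coupling among its neurons, read 8.62, 8.62, 8.53 and 8.68 at 6 h and 8.70, 8.78, 8.84 and 8.80 at 1 day (difference 0.17 ± 0.0518 SE, adjusted p = 0.321). Vip, the coupling peptide, read 8.21, 8.28, 8.27 and 8.36 at 6 h and 8.48, 8.45, 8.50 and 8.37 at 1 day (difference 0.17 ± 0.141 SE, adjusted p = 0.662). For both genes every array of 1 day lay above every array of 6 h, 2 of 15 genes beside 2.19% of all genes. The celastrol differences were 0.10 for Lhx1 and -0.41 for Vip. Prok2, an output peptide of the nucleus, differed by -0.14, Avp, vasopressin, by 0.02, and Zfhx3, a transcription factor of the nucleus, by 0.15. The value of Zfhx3 was 0.01 without replicate 3 of 6 h, its lowest array.

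Activity-induced genes showed no common direction. Of 50 measured, 20 were higher and 30 lower at 1 day, the median difference was -0.0101, and 0 passed. At an unadjusted p under 0.05, 2 were higher (4.02% of all genes) and 3 lower (6.67%), shares near those of all genes. The median was 0.000743 with arrays centred on their medians. The 1-day arrays were not alike for this list. Replicates 1 to 4 of 1 day carried the highest 1-day value for 8, 3, 15 and 24 of the 50 genes. Over all 18702 genes these counts were 3815, 4692, 5070 and 5125. The list means were 8.623, 8.583, 8.573 and 8.639 at 6 h and 8.567, 8.512, 8.626 and 8.623 at 1 day. Fos, the most used marker of recent neuronal activity, read 7.41, 7.09, 7.29 and 7.46 at 6 h and 6.95, 7.05, 7.45 and 7.42 at 1 day, with replicates 1 and 2 of 1 day the lowest of the 8 arrays. Egr1, a zinc finger factor, read 8.83, 8.62, 8.72 and 9.16 at 6 h and 8.65, 8.65, 8.99 and 8.997 at 1 day, and Arc, which regulates synaptic receptors, read 8.54, 8.70, 8.46 and 8.60 at 6 h and 8.49, 8.57, 8.64 and 8.69 at 1 day. The groups overlapped for all 3 genes, whose differences were -0.10, -0.01 and 0.02. That of Fos was -0.0092 without replicate 1 of 1 day. Nr4a1 and Junb, also immediate early factors, differed by 0.02 and 0.09.

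Npas4, a neuron-specific factor induced by calcium entry, read 8.03, 8.05, 7.77 and 8.21 at 6 h and 8.10, 8.18, 8.33 and 8.38 at 1 day, a difference of 0.23 ± 0.0719 SE (adjusted p = 0.321). Replicate 3 of 6 h was its lowest array and replicate 4 of 6 h overlapped with 1 day. In celastrol-treated mice the interval gave -0.24, and the vehicle difference exceeded the celastrol difference by 0.47 (adjusted p = 0.74). Jun, a subunit of AP-1, differed by 0.15 (adjusted p = 0.362). On the lower side were Fosl1, an AP-1 subunit (-0.27), Egr2 (-0.20), and Crem, a CREB-family factor with a repressor isoform (-0.18), with adjusted p of 0.41, 0.451 and 0.381. Dusp4, a MAP kinase phosphatase, and Nptx2, a secreted synaptic protein, were the 2 members whose 1-day arrays all lay below those of 6 h (3.61% of all genes), with differences of -0.14 and -0.08. The growth factor gene Bdnf differed by -0.07, and the secretory granule genes Vgf and Scg2 by -0.05 and 0.01.

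**Figure D3:**
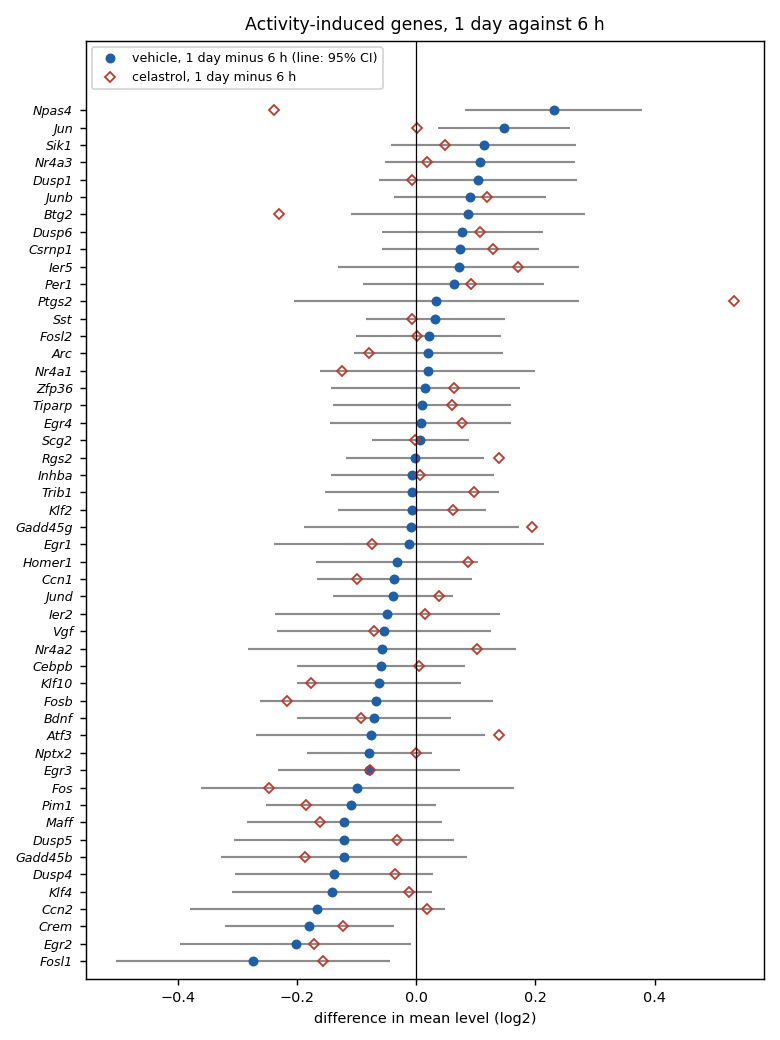
Differences in mean level (log2) of 50 activity-induced genes between 1 day and 6 h, with vehicle as blue dots with 95% confidence intervals and celastrol as open red diamonds. In vehicle mice 20 genes lie above 0 and 30 below, from -0.27 (Fosl1) to 0.23 (Npas4).

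Glucocorticoid response genes were mostly lower at 1 day, although no member passed. Of 37 measured, 29 were lower and 8 higher, with a median difference of -0.0659, where 54.1% of all genes were lower. At an unadjusted p under 0.05, 7 were lower (6.67% of all genes) and 0 higher. The median stayed below 0 in each of 21 other settings, between -0.11 and -0.0468. In celastrol-treated mice 34 of the 37 were higher at 1 day, with a median of 0.125, and 30 members had opposite signs in the 2 treatments, beside 36.5% of all genes. The difference between the treatments passed for 0 members.

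Lcn2, the acute-phase protein lipocalin 2, had the lowest difference of the list. It read 6.86, 7.35, 7.23 and 7.62 at 6 h and 6.46, 6.47, 6.50 and 6.47 at 1 day, a difference of -0.79 ± 0.226 SE (adjusted p = 0.301). Every array of 1 day lay below every array of 6 h, and the 1-day arrays lay close together while those of 6 h were spread. The 1-day values fell in the level range of the bottom bin when all genes were ranked into 5 equal bins (3.98 to 6.78). Whether they lay above background is unknown. The interval gave 0.86 in celastrol-treated mice, and the difference between the treatments was -1.65 (adjusted p = 0.368). Tmem252, Sult1a1, a sulfotransferase, and Arrdc2, an arrestin-domain protein, were the other members without overlap, 4 of 37 in all beside 3.61%. Sult1a1 read 8.81, 8.96, 9.04 and 9.07 at 6 h and 8.79, 8.72, 8.62 and 8.62 at 1 day (-0.29 ± 0.0912 SE, adjusted p = 0.331). Arrdc2 read 8.60, 8.52, 8.54 and 8.59 at 6 h and 8.51, 8.26, 8.33 and 8.30 at 1 day (-0.21 ± 0.079 SE, adjusted p = 0.373). For Arrdc2, replicate 1 of 1 day came within a small margin of the 6-h arrays and the other 3 were clearly lower.

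Among the receptor's best-known targets, Fkbp5, the co-chaperone that dampens the receptor, read 9.18, 9.21, 9.21 and 9.20 at 6 h and 9.27, 8.96, 8.97 and 8.99 at 1 day, a difference of -0.16 ± 0.0891 SE (adjusted p = 0.521). The 6-h arrays were nearly equal, replicates 2, 3 and 4 of 1 day were lower and replicate 1 was the highest of the 8, and without that replicate the difference was -0.23. Sgk1, the serum- and glucocorticoid-regulated kinase with the palindromic element shown above, read 10.54, 10.24, 10.50 and 10.52 at 6 h and 10.45, 10.09, 10.05 and 10.27 at 1 day (-0.23 ± 0.111 SE, adjusted p = 0.461). Plin4, a lipid droplet protein, read 9.03, 9.07, 8.74 and 9.21 at 6 h and 8.95, 8.64, 8.57 and 8.88 at 1 day (-0.25 ± 0.104 SE, adjusted p = 0.417). In both genes the groups overlapped. Mt1, a metal-binding protein, differed by -0.23, with replicate 3 of 6 h at 13.20 and the other 7 arrays between 12.54 and 12.70.

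Other classical targets went in both directions. Tsc22d3, the anti-inflammatory leucine zipper GILZ, read 10.06, 9.93, 10.15 and 9.94 at 6 h and 10.16, 9.87, 9.93 and 10.02 at 1 day and differed by -0.03. Zbtb16, a zinc finger repressor strongly induced by glucocorticoids, read 10.79, 10.97, 10.70 and 11.03 at 6 h and 11.29, 10.81, 11.02 and 10.88 at 1 day and differed by 0.13 (adjusted p = 0.628). Its highest array was replicate 1 of 1 day, without which the difference was 0.03. Klf9 and Dusp1 differed by 0.10 and 0.10, Ddit4, an mTOR inhibitor, by -0.13 and Pdk4 by -0.11. Per1 and Dusp1 are also members of other lists above.

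Replicate 1 of 1 day carried the highest 1-day value for 29 of the 37 glucocorticoid response genes and for 3815 of all 18702 genes. The list means of 6 h were 9.615, 9.587, 9.555 and 9.687, and those of 1 day were 9.625, 9.444, 9.47 and 9.545, so that this array lay within the 6-h range and the other 3 below it. It is also the 1-day array with high Prl and Gh. Without it 30 of 37 members were lower (median -0.11). Without the vehicle arrays with Prl above 9, which removes replicates 2 and 4 of 6 h and replicate 2 of 4 days as well, 26 of 37 were lower (median -0.105).

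**Figure D4:**
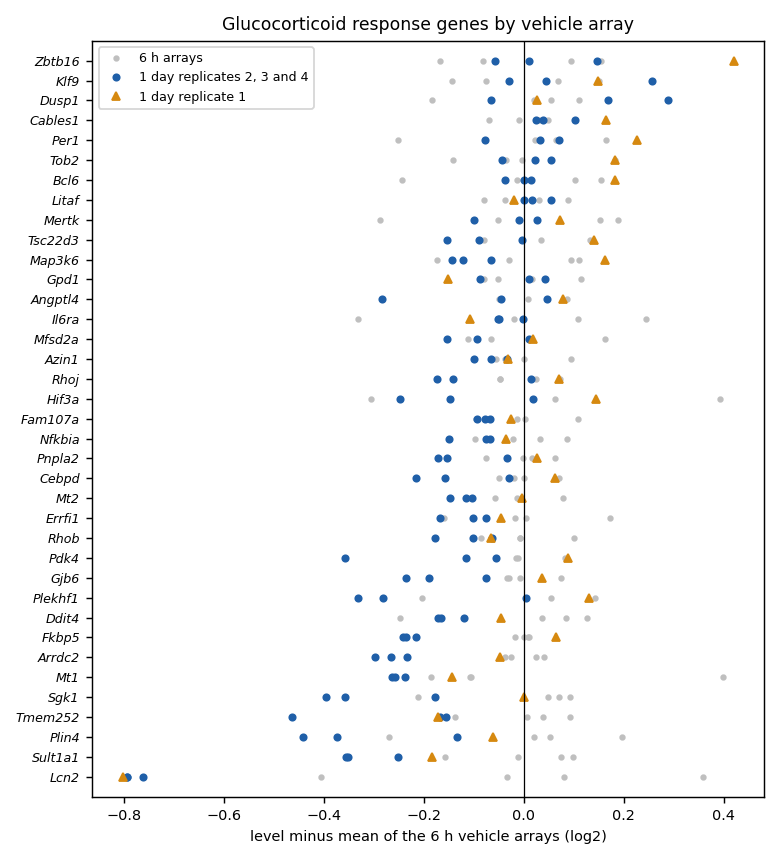
Level of 37 glucocorticoid response genes on each vehicle array, as the log2 difference from the mean of the 4 arrays of 6 h (grey dots, 6 h; blue dots, replicates 2, 3 and 4 of 1 day; orange triangles, replicate 1 of 1 day). The triangles are the highest 1-day value for 29 of 37 genes, and all 1-day arrays lie left of all 6-h arrays for Lcn2, Sult1a1, Tmem252 and Arrdc2.

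**Figure D5:**
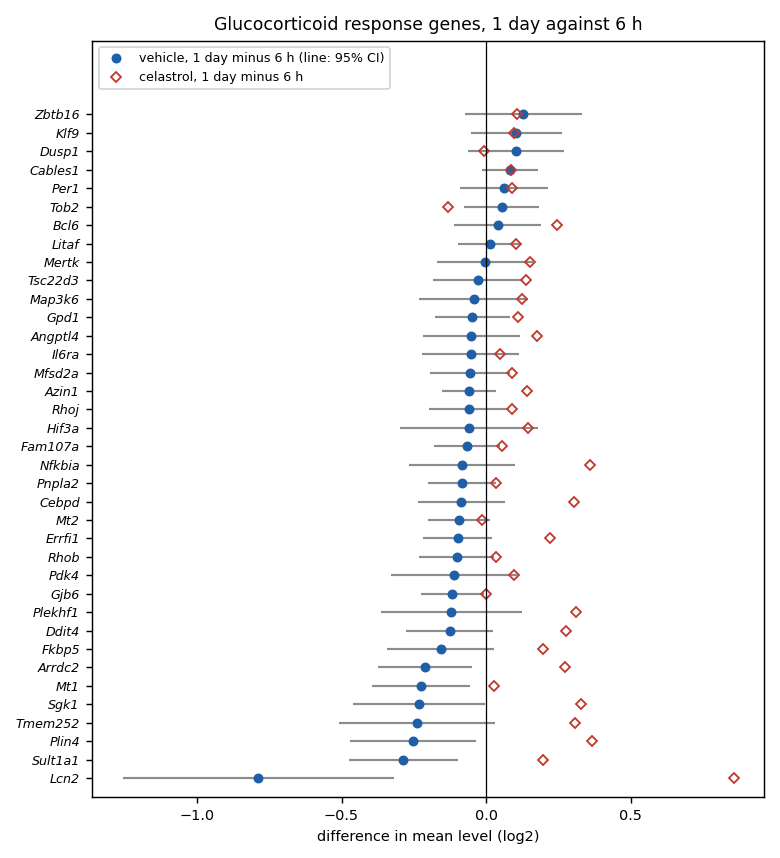
Differences in mean level (log2) of the 37 glucocorticoid response genes between 1 day and 6 h, with vehicle as blue dots with 95% confidence intervals and celastrol as open red diamonds. In vehicle mice 29 lie below 0 and in celastrol-treated mice 34 lie above 0.

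The genes that make and sense the stress hormone signal were mixed in direction. Of 20 measured genes of the axis 11 were lower, with a median of -0.0275 and 0 passed. Crh, the releasing hormone, read 7.50, 7.02, 7.38 and 7.46 at 6 h and 7.20, 7.05, 7.24 and 7.13 at 1 day and differed by -0.18 (adjusted p = 0.483), with replicate 2 of 6 h below every array of 1 day. The glucocorticoid receptor gene Nr3c1 differed by -0.02 and the mineralocorticoid receptor gene Nr3c2 by 0.07, the latter with every array of 1 day above every array of 6 h. Hsd11b1, which regenerates active corticosterone inside cells, read 8.11, 8.09, 8.30 and 8.15 at 6 h and 7.90, 8.02, 7.85 and 8.03 at 1 day and differed by -0.21 (adjusted p = 0.411), with every array of 1 day below every array of 6 h. On the higher side Nr3c2 was the only gene of the 20 without overlap, beside 2.19% of all genes. On the lower side it was Hsd11b1 alone, beside 3.61% of all genes. Adcyap1r1, the receptor of the peptide PACAP, differed by 0.16 (adjusted p = 0.385), or by 0.07 without replicate 3 of 6 h. Pomc, the precursor of ACTH in the pituitary and of melanocortins in the arcuate nucleus, read 8.06, 10.84, 8.32 and 10.43 at 6 h and 8.90, 7.92, 8.07 and 7.89 at 1 day. Its high arrays were those with high Prl. The difference of -1.22 (adjusted p = 0.387) was -0.50 with the pituitary marker mean in the model and -0.23 without the arrays with Prl above 9.

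Temperature-responsive genes included Rbm3, an RNA-binding protein induced by mild cooling. It read 12.19, 11.96, 12.57 and 12.03 at 6 h and 11.76, 11.80, 11.92 and 11.93 at 1 day, a difference of -0.33 ± 0.0962 SE (adjusted p = 0.301). The groups did not overlap, which held on the lower side for 1 of the list's 21 genes, beside 3.61% of all genes. Replicate 3 of 6 h was the highest array of Rbm3, and without it the difference was -0.21. Cirbp, its relative, read 10.74, 10.58, 10.88 and 10.47 at 6 h and 10.45, 10.44, 10.62 and 10.53 at 1 day and differed by -0.16 (adjusted p = 0.461), or by -0.09 without that array. The celastrol differences of the pair were 0.03 and -0.01. Hsp90aa1, a heat-inducible chaperone, differed by 0.10 (adjusted p = 0.362) and Hspa1a by -0.04. Of the 21 measured cold-inducible and heat shock genes, 15 were lower (median -0.0377, 0 passed). The list split almost evenly, with 11 lower and 10 higher, without replicate 3 of 6 h (median -0.0104) and without the arrays with Prl above 9 (median -0.0012).

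Feeding and fuel genes were lower for 19 of 33 (median -0.00747, 0 passed), and the median was 0.0034 with arrays centred on their medians. Txnip, a glucose-responsive inhibitor of thioredoxin, read 10.16, 9.98, 10.16 and 10.19 at 6 h and 10.07, 9.55, 9.69 and 9.73 at 1 day, a difference of -0.36 ± 0.119 SE (adjusted p = 0.343). Only replicate 1 of 1 day reached the 6-h range. Npy, the hunger peptide, read 11.49, 11.35, 11.95 and 11.37 at 6 h and 11.41, 11.33, 11.28 and 11.33 at 1 day and differed by -0.20, with replicate 3 of 6 h the highest array. Without that array Npy differed by -0.07. Cartpt, an anorexigenic peptide, differed by -0.00042, Lepr by -0.12 and Insr, the insulin receptor, by 0.13, the last 2 by -0.06 and 0.06 without replicate 3 of 6 h.

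Inflammatory and acute-phase genes were lower for 25 of 27 (median -0.0853), where 54.1% of all genes were lower. Of them 0 passed the threshold, and 7 were lower at an unadjusted p under 0.05 (6.67% of all genes). Icam1, a leukocyte adhesion molecule of endothelium, read 8.07, 8.08, 8.07 and 8.22 at 6 h and 8.11, 7.83, 7.89 and 7.72 at 1 day (-0.22 ± 0.0678 SE, adjusted p = 0.318). Replicate 1 of 1 day lay among the 6-h arrays and the others below. Sele, E-selectin, differed by -0.19 and Timp1, a protease inhibitor, by -0.19, and the list shares Lcn2, Nfkbia and Cebpd with the glucocorticoid list. Only 4 of the 27 members had a level above the median of all genes. Low-level genes were lower at 1 day in general. When all genes were ranked by level into 5 equal bins, 61% were lower in bin 1, the bottom bin (median -0.0258). In bin 2 74.2% were lower (median -0.061) and in bin 3 57.3% (median -0.0151), against 36% in the top bin (median 0.0253). The values of an array spread by 1.93 (SD over genes) at 6 h and 1.95 at 1 day (exact permutation test, 2-sided p = 0.0571, adjusted over 4 measures 0.228). The part of this in the list's result was not tested. The count was 22 lower after a further quantile normalisation (median -0.0616) and 19 lower without the arrays with Prl above 9 (median -0.0995).

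Oxidative phosphorylation genes were lower for 25 of 28 (median -0.0586, 0 passed), and this rested on 1 array. The list mean was 11.71 on replicate 3 of 6 h, between 11.39 and 11.42 on the other 6-h arrays and between 11.37 and 11.45 at 1 day. Without replicate 3 of 6 h, 14 of 28 members were lower and the median was -0.0009. Ndufv1, a complex I subunit, differed by -0.16 (adjusted p = 0.301) and read 11.28, 11.26, 11.38 and 11.25 at 6 h and 11.18, 11.16, 11.15 and 11.07 at 1 day, with no overlap. It was the only gene of the 28 without overlap, beside 3.61% of all genes on the lower side. Cholesterol and fatty acid synthesis genes were higher for 12 of 21 (median 0.0265), with Srebf2, a master regulator of the pathway, at 0.10. Without replicate 3 of 6 h Srebf2 differed by 0.02, and the list's median ran from -0.000852 to 0.0403 over 21 other settings.

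The 10 genes with the smallest p were mostly lower at 1 day. Except for Naa20 (10.5), their mean levels over all 23 arrays lay between 5.97 (Ifit3b) and 8.09 (Actc1). Genes of low level were mostly lower in general (61%, 74.2% and 57.3% in bins 1 to 3 above). The split at an unadjusted p under 0.05 moved with the scaling. The part of this in these 10 genes was not tested. Ccr10, a chemokine receptor, read 7.66, 7.64, 7.96 and 7.72 at 6 h and 7.38, 7.40, 7.40 and 7.32 at 1 day (-0.37 ± 0.0666 SE, adjusted p = 0.101). Actc1, the cardiac actin, read 8.11, 8.35, 8.33 and 8.68 at 6 h and 7.73, 7.90, 8.002 and 7.93 at 1 day (-0.48 ± 0.0873 SE, adjusted p = 0.101), and Olfr522, an odorant receptor gene, differed by -0.35 (adjusted p = 0.101). All 3 genes separated the groups completely, which is no separate support, because they were picked by p in these same arrays. Their 4-day vehicle means were 7.77, 8.04 and 7.11. Naa20, the catalytic subunit of an N-terminal acetyltransferase, read 10.94, 10.83, 11.25 and 10.80 at 6 h and 10.56, 10.63, 10.46 and 10.53 at 1 day (-0.41 ± 0.0834 SE, adjusted p = 0.174). Pctp, a phosphatidylcholine transfer protein, Defb25, a defensin, Olfr485, Hrct1 and S100a3 followed with differences of -0.26, -0.29, -0.52, -0.38 and -0.33. For S100a3 the groups overlapped. The 1 gene of these 10 that was higher was Ifit3b, an interferon-induced gene, at 5.82, 5.51, 6.10 and 5.57 at 6 h and 6.35, 6.38, 6.28 and 6.40 at 1 day (0.60 ± 0.13 SE, adjusted p = 0.178). Its arrays of 1 day lay close together above all 6-h arrays, its 4-day mean was 5.83 and its celastrol difference 0.22. The Ifit3b values at both times fell in the level range of the bottom bin (3.98 to 6.78). Whether they lay above background is unknown. Leaving out replicate 1 of 6 h gave 10 genes past the threshold, all lower: Actc1, C1qtnf9, Ccr10, Dennd2d, Ffar1, Gpr142, Olfr485, Olfr522, Polr2e and S100a3. Array weights gave 4, which were Ccr10, Defb25, Olfr522 and, higher, Ifit3b.

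Among genes above the median level, the smallest p on the higher side belonged to Rdx, radixin, which links actin to the membrane. It read 10.91, 10.84, 10.86 and 10.92 at 6 h and 11.02, 11.04, 11.03 and 11.11 at 1 day (0.17 ± 0.0383 SE, adjusted p = 0.183). Ro60, an RNA-binding autoantigen, Klhl11, a ubiquitin ligase adaptor, and Cxxc4, an inhibitor of Wnt signalling, differed by 0.20, 0.19 and 0.21, and Nipa1, Gpr137b, Map6d1, Pld2 and Cacna1h by 0.17 to 0.26. Ndnf, a secreted neurotrophic factor, had the highest difference of these 10 at 0.32 (adjusted p = 0.281), with a celastrol difference of -0.08. On the lower side Polr2e, a subunit shared by the RNA polymerases, differed by -0.33 and Rtcb, the tRNA ligase, by -0.21. Dbt, of branched-chain amino acid breakdown, read 10.51, 10.55, 10.52 and 10.52 at 6 h and 10.28, 10.36, 10.35 and 10.30 at 1 day and differed by -0.20. Every 1-day array of Rdx lay above, and every one of Dbt below, all 6-h arrays. The remaining 6 lower genes (5730522E02Rik, Rab10os, Manbal, Erg28, Minar2 and Trmt112) differed by -0.22 to -0.15, with adjusted p from 0.228 to 0.254.

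The same interval in celastrol-treated mice gave 6 of 18702 genes past the threshold (0.0321%), 4 higher and 2 lower (limma, 1880 at an unadjusted p under 0.05, 10.1%). The gene with a known role in inflammation, Ch25h, cholesterol 25-hydroxylase, rose by 0.99 there (adjusted p = 0.0348) and differed by -0.07 with vehicle. Scgb3a1, a secretoglobin, rose by 0.93 (adjusted p = 0.0495) and differed by -0.12 with vehicle. The other 4 were odorant receptor genes, Olfr191 and Olfr624 higher and Olfr211 and Olfr5 lower, with vehicle differences of 0.47, 0.24, -0.07 and -0.20. Leaving out any 1 of the 7 celastrol arrays gave between 0 and 2 genes past the threshold. The vehicle and celastrol differences had the same sign for 63.5% of all genes and for 80% of the 1999 genes with an unadjusted vehicle p under 0.05. The test of the difference between them gave its smallest adjusted p, 0.368, for Ch25h, Lcn2 and Tmem202.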

How the data were processed

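Total RNA of the hypothalamus was hybridised to Affymetrix whole-transcript arrays, per the labels. The values are log2 expression per probe set, deposited by the authors and made with RMA, per the submitters' processing notes. Software, its version, filters and scan batches: not given in the sources used here. Of 23492 probe sets, 20228 named 1 gene, 1399 several and 1865 none. Where several probe sets named the same gene (811 genes), the brightest on average was kept, leaving 18702 genes with no filter on level. A limma model (version 3.58.1, R 4.3.3) of 6 group means was fitted over 23 arrays (17 residual and 5.424 prior degrees of freedom), with Benjamini-Hochberg adjustment at 0.05. Precision is limited by how few arrays each group has. The comparison and the gene lists were chosen with earlier results of these data known. Named are the genes past the threshold, filled up to 10 per direction by smallest p above the median level, the 10 of smallest p, a fixed set of clock, activity, stress and feeding genes, up to 4 members of each other list and up to 5 genes by smallest p of the treatment difference. The celastrol calls, and members described by overlap, were chosen after their values were seen. Some listed genes, Npas2, Arl4d, Cdkn1a and Agrp among them, were not analysed here. The procedure was tested on simulated data, with 11 false calls. Alternatives were 14 settings and 8 vehicle arrays left out in turn.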

Additional observations from a re-analysis of the deposited data

Results flagged for a closer look

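Of 282 groups of 4 arrays examined (141 named genes and array measures at both times), 24 held an array far from the other 3 by Dixon's criterion at the 95% level, and chance flags about 1 in 20 groups.

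Replicate 1 of 1 day stood apart for Prl (9.241, the nearest other array at 6.132), Gh (11.56 against 8.058), Fkbp5 (9.267 against 8.988) and Ciart (10.56 against 10.38). Its median level was the lowest, at 8.607 against 8.642. Replicate 3 of 6 h stood apart for Per3 (9.526), Adcyap1r1 (11.79), Insr (10.3), Scd1 (12.71) and Slc1a2 (12.66), all low, and for Ndufa8 (11.73), which was high.

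Replicate 2 of 6 h was low for Sgk1 (10.24) and Txnip (9.978). Replicate 1 of 6 h was high for the proteoglycan gene Vcan (9.993). Replicate 4 of 6 h was low for Rab10os (8.783) and high for Icam1 (8.217) and for Prkcd, a marker of thalamus (10.69 against 9.676).

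At 1 day, replicate 2 was high for Prok2 (7.385) and Rgs16 (10.32). Replicate 3 was low for Nr1d1 (11.74) and high for Manbal (11.16) and for the tachykinin gene Tac2 (11.24). Replicate 4 was high for Gpr137b (9.145) and Cartpt (10.31).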

How the results depend on the processing

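For the vehicle difference, 0 genes passed in 13 of 14 alternative settings. Array weights gave 4 (1 higher, 3 lower), and leaving out 1 array at a time gave 0 to 10, the 10 without replicate 1 of 6 h. Same-numbered arrays of the groups did not deviate together (correlations of -0.199, -0.106, 0.0186 and -0.0439). Whether the numbers also stand for a shared batch or order is not known. With the replicate number as a block 0 genes passed for the vehicle difference, 11 for the celastrol difference and 0 for the difference between them. Without the arrays with Prl above 9, the genes with an unadjusted vehicle p under 0.05 split into 1379 higher and 1101 lower, against 751 and 1248.

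For the celastrol difference, 6 genes became 0 without the lowest tercile of genes, without genes below the median level, with every probe set, and with the SD over genes or the pituitary marker mean as a covariate. They became 1 with median-centred arrays or the choroid plexus covariate and 20 with array weights, and 0 to 2 with 1 array left out. The difference between treatments gave 0 to 1 genes with 1 array left out, the 1 being Scgb3a1 without replicate 1 of celastrol at 1 day. The causes were not tested.

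Differences per array measure, with 1 array left out, ran from -0.015 to -0.00165 for the median level, from 0.0137 to 0.0231 for the SD over genes, from -0.805 to -0.232 for the pituitary mean and from -0.0903 to -0.0275 for the choroid plexus mean. No choroid plexus marker was above the median level, so that setting gave no value for it. Of 137 named genes, 119 kept their sign in every setting and 8 passed in some setting. Many of them were named for a small p in these same arrays, and the settings reuse those arrays. These counts are therefore no independent support, and no share over all genes was computed. The values used here carry no detection calls, so signal over background is unknown for every gene.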

Other observations

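Markers of the other cell types of the tissue gave 0 members past the threshold in each list, and 54.1% of all genes were lower. The ranges given are of a list's median over the other settings, left-out arrays included. Oligodendrocyte markers were higher at 1 day for 9 of 13 (median 0.0492, range 0.0275 to 0.0663), with Ugt8a, an enzyme of myelin lipid synthesis, at 0.20. Astrocyte markers were higher for 5 of 10 (median 0.0113, range -0.00501 to 0.0334), with the water channel gene Aqp4 at 0.15. Endothelial markers were higher for 8 of 11 (median 0.0261, range 0.0148 to 0.0716). Microglial markers were lower for 7 of 9 (median -0.0384, range -0.0702 to -0.00422), with the complement gene C1qa at -0.21 (-0.12 without replicate 3 of 6 h, without which 5 of 9 were lower) and the growth factor receptor gene Csf1r at 0.12. Tanycyte and ependymal markers were lower for 9 of 10 (median -0.0598, range -0.0908 to -0.0173, the latter without replicate 3 of 6 h), with the homeobox gene Rax at -0.22 and Crym, a thyroid hormone binding protein, at -0.24. The direction of the remaining lists changed with the setting, as did that of the astrocyte list. Mural cell and fibroblast markers were lower for 12 of 16 (median -0.0561), but 12 of 16 were higher with the pituitary marker mean as a covariate (median 0.0343), 10 with the choroid plexus mean (0.0135) and 9 without replicate 3 of 1 day (0.00739), and they split 8 and 8 without replicate 4 of 6 h (0.00111). Thalamus markers were lower for 9 of 14 (median -0.0337), but 8 were higher without replicate 1 of 1 day (0.0147) and 9 without the arrays with Prl above 9 (0.0688), and they split 7 and 7 without replicate 4 of 6 h (0.00191). Blood and leukocyte markers were lower for 7 of 11 (median -0.0831, range -0.115 to 0.00135), striatum markers for 4 of 8 (median 0.00401, range -0.0253 to 0.0317) and hypothalamus markers for 8 of 16 (median -0.00119, range -0.0522 to 0.0235).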
